A study of Danio rerio with 6 samples.

Results

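Lysosomal genes were examined in caudal haematopoietic tissue (CHT) ECs of zebrafish embryos at 36 hpf, in 3 control and 3 DN-bmal1a libraries. They were chosen by symbol: cathepsins and legumain, subunits and accessory proteins of the vacuolar proton pump (V-ATPase), LAMP, SCARB2, NPC and mucolipin proteins, and a fixed set of acid hydrolases with their cofactors. Of the 10232 genes listed, 54 had such a symbol. There were 13 cathepsins and legumain, 10 genes of the V1 sector of the pump, 7 of its V0 sector, 2 accessory subunits, 5 lysosomal membrane proteins and 16 hydrolases and cofactors. The last of the 54, gbas, matched by its letters only. It is an older symbol of nipsnap2, which encodes a mitochondrial protein, and it is kept apart below.

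All embryos carried the flk1:GFP reporter and the UAS:DN-bmal1a transgene. The controls were flk1:GFP;UAS:DN-bmal1a embryos, which lack a driver, and the DN-bmal1a embryos were flk1:GFP;flk1:GAL4;UAS:DN-bmal1a, which places the dominant-negative protein where flk1 (kdrl) is active, throughout the vasculature and not in the CHT alone. The DN protein keeps the DNA-binding part of Bmal1a and lacks its transactivation domain. CHT regions were dissected from pooled embryos, and about 5000 GFP-positive cells per sample were sorted. The libraries thus hold all cells of the gate, and a gene with fewer reads could be made by fewer cells or by less RNA per cell, which cannot be told apart here.

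Lysosomes are acidic organelles in which material taken up by endocytosis, phagocytosis or autophagy is broken down. The V-ATPase pumps protons into them: its V1 sector hydrolyses ATP in the cytosol, and its V0 sector carries protons across the membrane. Cathepsins are the main lysosomal proteases, and the glycosidases, lipases and thioesterases dismantle sugars and lipids. Many of these genes in mammals are activated by TFEB and TFE3, which bind an element that contains an E-box, the kind of motif that BMAL1 and CLOCK also bind. Venous ECs of the zebrafish tail are scavenger cells that take up macromolecules from blood and degrade them.

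The table gave reads per 1000000 of an effective library size (CPM), and whole reads could be recovered from it: 26161915 to 55004237 per library. No listed gene was without reads in more than 3 libraries. arntl1a, the older symbol of bmal1a, whose reads can include those of the transgene, had 20.6, 16.8 and 3.28 CPM in control libraries and 42.9, 22.1 and 55.5 CPM in DN-bmal1a libraries, so that the groups did not overlap. Replicate 2 of DN-bmal1a had the fewest reads and no read of 1760 listed genes, against 34 to 865 in the other libraries. Of 14 endothelial markers, 12 were listed, kdrl and cdh5 among them. All 12 had a log2 fold change below 0, beside 58.1% of all genes. At a limma unadjusted p under 0.05, 6 of them were lower, beside 8.12% of all genes. Their summed level was 7461 to 8484 CPM in control libraries and 4961 to 6003 CPM in DN-bmal1a libraries, so that the groups were apart. Leukocyte and erythroid markers were also listed in both groups, although the cells had been sorted on flk1:GFP: 4 of 6 neutrophil markers summed to 5539 to 9817 CPM in control libraries and 5168 to 7881 CPM in DN-bmal1a libraries, and 7 of 8 erythroid markers to 660 to 2225 CPM and 2841 to 4321 CPM. All 4 neutrophil markers had a log2 fold change below 0, beside 58.1% of all genes. Only mpx among them had an unadjusted p under 0.05 (log2 fold change -0.97, limma unadjusted p = 0.0103). At a limma unadjusted p under 0.05, 4 of the 7 erythroid markers were higher and 1 lower, beside 3.1% and 8.12% of all genes. Of these 7, 5 had a log2 fold change above 0. The 2 below 0 were epb41b, at -0.34, and gata1a, with 4.13, 5.84 and 8.89 CPM in control libraries and 0, 0 and 1.83 CPM in DN-bmal1a libraries. The part of these differences in the results below was not tested.

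None of the 54 genes passed the test between DN-bmal1a and control ECs, which asked for an adjusted p below 0.05 together with an at least 2-fold difference (limma on log2(CPM + 1), Benjamini-Hochberg over all genes, n = 3 per group). The same test called 0.00977% of all genes, or 1 gene. At an unadjusted p under 0.05, 8 of the 54 were lower in DN-bmal1a and 0 were higher, where 8.12% of all genes were lower and 3.1% higher. Of all genes with such a p, 72.4% were lower, and 56.4% after quantile normalization, under which the count of the 54 was also 8 lower and 0 higher, though not all of the same genes. All 3 DN-bmal1a libraries lay below all 3 controls in 7 of the 54 and above them in 1, against 10.7% and 7% of all genes. The counts at an unadjusted p under 0.05 were 7 lower and 0 higher with edgeR's quasi-likelihood test on the recovered reads (5.23% and 2.63% of all genes), 7 and 0 with DESeq2 (6.17% and 4.07%), and 12 and 0 with limma and array weights, which give noisier libraries less weight (10.6% and 4.12%). With 3 libraries against 3, the smallest p of a two-sided exact permutation test is 0.1, and the 8 genes whose groups did not overlap had it. By direction, 46 of the 54 had a log2 fold change below 0, or 85.2%, against 58.1% of all genes, and the median was -0.34 against -0.13. These values moved with single libraries. Without control replicate 3, the count was 36 of the 54 and the median -0.14, beside 57.6% and -0.12 over all genes. Without DN-bmal1a replicate 2, they were 37 of the 54 and -0.14, beside 54.2% and -0.06.

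**Figure D1:**
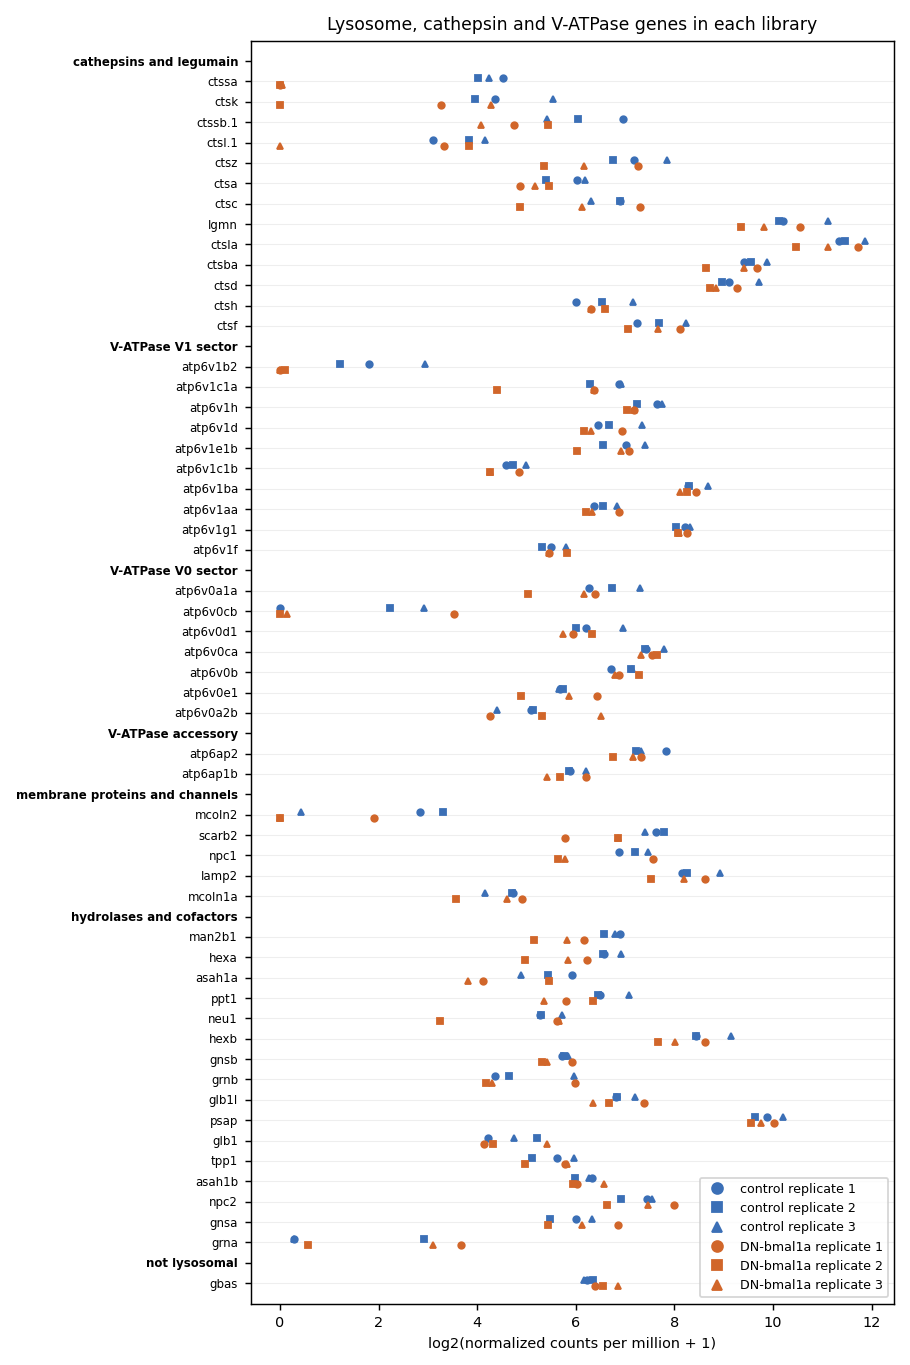
Level of each of the 54 genes in each of the 6 libraries, as log2(CPM + 1), grouped by role and ordered within a role by fold change, with controls in blue and DN-bmal1a in orange. ctssa is the row in which the groups lie farthest apart, with 15.3 to 22.0 CPM in control libraries and at most 0.0355 CPM in DN-bmal1a libraries, and most other rows overlap.

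The largest difference among the cathepsins was in ctssa (now ctss1), one of the zebrafish genes for cathepsin S, a cysteine protease known in mammals for antigen processing in phagocytes. It had 22.0, 15.3 and 17.8 CPM in control libraries, from 911, 571 and 894 reads, and 0, 0 and 0.0355 CPM in DN-bmal1a, from 0, 0 and 2 reads. All 3 controls were thus within a narrow range, and DN-bmal1a was at or next to 0 in every library. Pooled over libraries, the control rate of reads was 1166 times that of DN-bmal1a (95% exact interval 323 to 9637, for counting error only, not for losses of molecules before sequencing). Its log2 fold change on log2(CPM + 1), which the added 1 limits for so few reads, was -4.24 (standard error, SE, 0.66, limma unadjusted p = 8.83e-05, adjusted p = 0.108), the 8th lowest unadjusted p of all genes. The study's own edgeR test of these same libraries had called ctssa lower in DN-bmal1a, at an adjusted p below 0.05 and an at least 2-fold difference. Its methods do not name which of edgeR's tests was used. ctssa was named here with that result known, so its rank is a description and no separate evidence. Since no listed gene had reads in fewer than 3 libraries, the 3 controls alone would have met that minimum for ctssa. In tests of the recovered reads, ctssa had an adjusted p of 5.07e-11 with DESeq2, which called 1.87% of all genes, and 0.254 with edgeR's quasi-likelihood test, which called 0% (804 genes at an unadjusted p under 0.05).

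The summed level of macrophage markers overlapped between the groups. Of 17 on the list, 6 were in the table, and their sum was 1328 to 2248 CPM in control libraries and 1436 to 2105 CPM in DN-bmal1a libraries. Most of this sum came from coro1a and lcp1, which are made by other leukocytes too. coro1a had a log2 fold change of 0.07 (SE 0.22, limma adjusted p = 0.929) and spi1b, the gene of the myeloid factor Pu.1, of -0.01 (SE 0.33, limma adjusted p = 0.993). lcp1, irf8 and aif1l had log2 fold changes of -0.12, -0.20 and 0.26. Of the 6, 4 were below 0 and 2 above it, and none had a limma unadjusted p under 0.05. The defining macrophage genes mpeg1.1, marco and csf1ra were not among the rows. mfap4 had 3.21, 3.16 and 0.0199 CPM in control libraries and 0, 0 and 1.62 CPM in DN-bmal1a libraries. Its log2 fold change was -0.92 (SE 0.75, limma adjusted p = 0.681). Whether the share of macrophages differed between the groups was not tested.

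**Figure D2:**
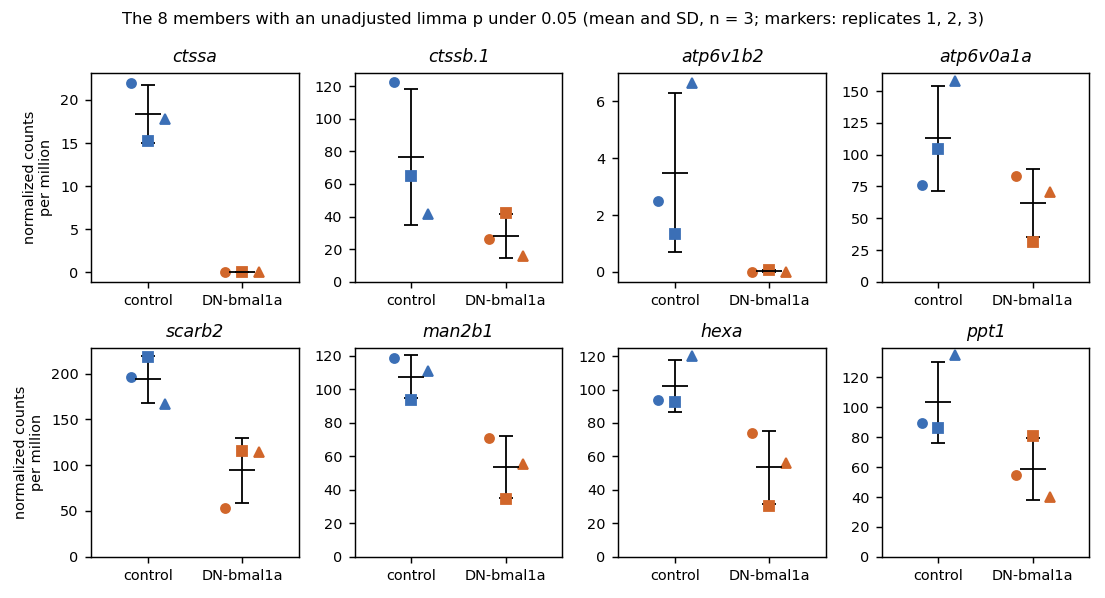
CPM in each library, with mean and SD (n = 3 per group), of the 8 genes whose limma p was under 0.05 before adjustment; the marker shapes stand for replicates 1, 2 and 3. The groups are apart in ctssa, atp6v1b2, scarb2, man2b1, hexa and ppt1, and overlap in ctssb.1 and atp6v0a1a.

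The other cathepsin S gene of the table, ctssb.1 (now ctss2.1), had 122, 64.9 and 41.5 CPM in control libraries and 26.0, 42.3 and 15.9 CPM in DN-bmal1a libraries. The groups overlapped by a narrow margin, since replicate 2 of DN-bmal1a lay just above control replicate 3. The log2 fold change was -1.38 (SE 0.48, limma unadjusted p = 0.0173, adjusted p = 0.357). The share of ctssa in the summed CPM of both cathepsin S genes was 15.2, 19.05 and 29.99% in control libraries and 0, 0 and 0.223% in DN-bmal1a libraries. The low share in DN-bmal1a follows from its 0, 0 and 2 reads of ctssa and is no separate result.

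The libraries in ctssb.1 had an order that some leukocyte and epidermal markers shared. Its highest control was replicate 1, its lowest control replicate 3 and its highest DN-bmal1a library replicate 2. asah1a, one of the paralogues of acid ceramidase, had this order too, with 59.9, 42.1 and 28.7 CPM in control libraries and 16.3, 42.8 and 13.1 CPM in DN-bmal1a libraries. No other gene of the 54 had it, against 9.16% of all genes. mpx, the gene of neutrophil myeloperoxidase, had 1818, 1266 and 818 CPM in control libraries and 570, 890 and 491 CPM in DN-bmal1a libraries, in the same order. By list, the order was held by 3 of 4 neutrophil markers (mpx, lyz and cpa5), 3 of 6 macrophage markers (spi1b, coro1a and lcp1), 3 of 6 epidermal markers (krt4, cyt1 and epcam) and 0 of 12 endothelial markers. These genes were compared after their values had been seen, and the part of RNA from other cells in ctssb.1 and asah1a was not tested.

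All 13 cathepsins and legumain had a log2 fold change below 0, beside 58.1% of all genes, with a median of -0.60. Only the 2 cathepsin S genes had a limma unadjusted p under 0.05, where 8.12% of all genes were lower at this p. The median of the 13 was -0.90 without DN-bmal1a replicate 1 and -0.30 without replicate 2. ctsla, a cathepsin L gene, took more reads than any other of the 54, a count that does not correct for gene length. It had 2588, 2826 and 3734 CPM in control libraries and 3357, 1421 and 2228 CPM in DN-bmal1a libraries. Replicate 1 of DN-bmal1a was above the first 2 controls, so that the groups overlapped widely. lgmn encodes legumain, the asparaginyl endopeptidase that matures several cathepsins. It had 1182, 1116 and 2228 CPM in control libraries and 1502, 647 and 907 CPM in DN-bmal1a libraries, and control replicate 3 was far above the other libraries. Their log2 fold changes were -0.45 (SE 0.29, limma adjusted p = 0.59) and -0.58 (SE 0.34, limma adjusted p = 0.554).

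ctsba, a cathepsin B gene, had 681, 750 and 935 CPM in control libraries and 819, 400 and 682 CPM in DN-bmal1a libraries. ctsd, the gene of the aspartic protease cathepsin D, had 547, 501 and 839 CPM in control libraries and 612, 419 and 456 CPM in DN-bmal1a libraries. In both genes the lowest value was that of DN-bmal1a replicate 2 and the highest that of control replicate 3. Their log2 fold changes were -0.36 (95% interval -0.94 to 0.22) and -0.32 (95% interval -0.84 to 0.19).

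ctsk and ctsl.1 each had 1 DN-bmal1a library without reads. In the libraries with reads, ctsk had 373 to 2274 reads and ctsl.1 had 316 to 842. ctsk, which in mammals encodes the collagen-degrading protease of osteoclasts, had 19.6, 14.6 and 45.2 CPM in control libraries and 8.64, 0 and 18.3 CPM in DN-bmal1a libraries. Its log2 fold change of -2.11 (SE 1.05, limma adjusted p = 0.493) was set largely by the library at 0, and was -0.85 without it. ctsl.1 had 7.63, 13.2 and 16.7 CPM in control libraries and 9.08, 13.2 and 0 CPM in DN-bmal1a libraries, and its log2 fold change of -1.31 (SE 1.02, limma adjusted p = 0.666) was -0.11 without the library at 0. The remaining cathepsins ranged from -1.003 for ctsz, a carboxypeptidase, to -0.11 for ctsf. ctsz had 144, 107 and 230 CPM in control libraries and 151, 40.1 and 70.4 CPM in DN-bmal1a libraries. ctsa, the carboxypeptidase that also stabilises the sialidase Neu1, had a log2 fold change of -0.70 and ctsc, which activates serine proteases of leukocyte granules, of -0.60, and neither had an unadjusted p under 0.05. ctsh, an aminopeptidase, had a log2 fold change of -0.16.

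Of the 19 V-ATPase genes, 15 (78.9%) had a log2 fold change below 0, beside 58.1% of all genes, with a median of -0.31. At a limma unadjusted p under 0.05, 2 were lower and 0 higher, beside 8.12% and 3.1% of all genes. The median was -0.10 without control replicate 3, -0.14 without DN-bmal1a replicate 2 and -0.08 without DN-bmal1a replicate 3. For several of the most covered subunits the intervals were narrow around 0. atp6v1g1, a peripheral stalk subunit, had 295, 262 and 317 CPM in control libraries and 304, 267 and 272 CPM in DN-bmal1a libraries. The log2 fold change was -0.05 (95% interval -0.42 to 0.32). atp6v0ca, a subunit of the membrane ring that carries protons, had 172, 169 and 219 CPM in control libraries and 186, 198 and 160 CPM in DN-bmal1a libraries, with a log2 fold change of -0.04 (95% interval -0.47 to 0.40). The intervals of these subunits leave out a change of 2-fold in either direction, as did those of 21 of all 54 genes. The interval reached a fall of at least 2-fold in 31 of the 54 genes, and lay wholly beyond it in ctssa alone, at -5.71 to -2.77.

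In the V1 sector, atp6v1ba, a B subunit gene, had 308, 315 and 407 CPM in control libraries and 347, 304 and 277 CPM in DN-bmal1a libraries, a log2 fold change of -0.14 (95% interval -0.55 to 0.26). The gene listed as atp6v1b2, another B subunit gene, had only 2.49, 1.34 and 6.66 CPM in control libraries, from 103, 50 and 335 reads. In DN-bmal1a it had 0, 0.0733 and 0 CPM, from 0, 2 and 0 reads. It was lower in every DN-bmal1a library, with a pooled rate of reads in the controls of 240 times that in DN-bmal1a (95% exact interval 66.0 to 1984, for counting error only). Its log2 fold change on log2(CPM + 1) was -1.95 (SE 0.63, limma unadjusted p = 0.0123, adjusted p = 0.332), and on the recovered reads the adjusted p was 0.0384 with DESeq2 (1.87% of all genes called) and 0.498 with edgeR's quasi-likelihood test (0% called). After quantile normalization the log2 fold change was -0.93 (limma adjusted p = 0.68), and the filter at a mean of at least 5 CPM left the gene out. As with ctssa, the 3 controls alone would have met the minimum of 3 libraries with reads. atp6v1b2 made up at most 1.61% of the summed CPM of both B subunit genes in any library.

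atp6v1h, a regulatory subunit, was below every control in all 3 DN-bmal1a libraries, with 198, 149 and 213 CPM against 144, 130 and 145 CPM. The gap was small: the highest DN-bmal1a library was at 145 CPM and the lowest control at 149 CPM, and the log2 fold change was -0.40 (SE 0.20, limma unadjusted p = 0.0753). atp6v1c1a, which holds the stalks to the motor, had 117, 77.0 and 119 CPM in control libraries and 81.9, 20.3 and 82.2 CPM in DN-bmal1a libraries, where replicate 2 alone was far below the others. On the log2 scale the difference was -0.97 (SE 0.50, limma unadjusted p = 0.081). Its share of the summed CPM with its paralogue atp6v1c1b was 75.1 to 83.6% in control libraries and 52.7 to 81.8% in DN-bmal1a. atp6v1f, a rotor subunit, had 43.9, 38.7 and 54.9 CPM in control libraries and 42.6, 55.5 and 42.6 CPM in DN-bmal1a libraries, and its log2 fold change of 0.04 (95% interval -0.64 to 0.71) changed sign when single libraries were left out.

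In the V0 sector, the a subunit, which sets where in the cell the pump resides, is made from several genes. atp6v0a1a had 76.3, 105 and 158 CPM in control libraries and 83.1, 31.7 and 70.4 CPM in DN-bmal1a libraries. The groups overlapped, and the log2 fold change was -0.91 (SE 0.40, limma unadjusted p = 0.0473, adjusted p = 0.439). Its relative atp6v0a2b had 32.99, 34.02 and 20.004 CPM in control libraries and 18.2, 38.7 and 90.5 CPM in DN-bmal1a libraries, a log2 fold change of 0.49 (SE 0.55, limma adjusted p = 0.769) that rested on DN-bmal1a replicate 3 and was -0.08 without it. The share of atp6v0a1a in the sum of both was 69.8, 75.5 and 88.8% in control libraries and 82.0, 45 and 43.7% in DN-bmal1a. A further a subunit gene, tcirg1b, has a symbol outside the rule and is not in this share. It had 132, 133 and 148 CPM in control libraries and 148, 94.5 and 91.0 CPM in DN-bmal1a libraries, a log2 fold change of -0.34 (SE 0.24). atp6v0b, atp6v0e1 and atp6v0d1 had log2 fold changes of 0.00065, 0.03 and -0.38, and the accessory subunits atp6ap2, known as the prorenin receptor, and atp6ap1b of -0.38 and -0.21. The V1 subunits atp6v1aa, atp6v1c1b, atp6v1d and atp6v1e1b lay at -0.11, -0.31, -0.35 and -0.31. atp6v0cb had few reads, with 0, 3.67 and 6.52 CPM in control libraries and 10.6, 0 and 0.107 CPM in DN-bmal1a libraries, without a common direction. None of these had an unadjusted p under 0.05.

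**Figure D3:**
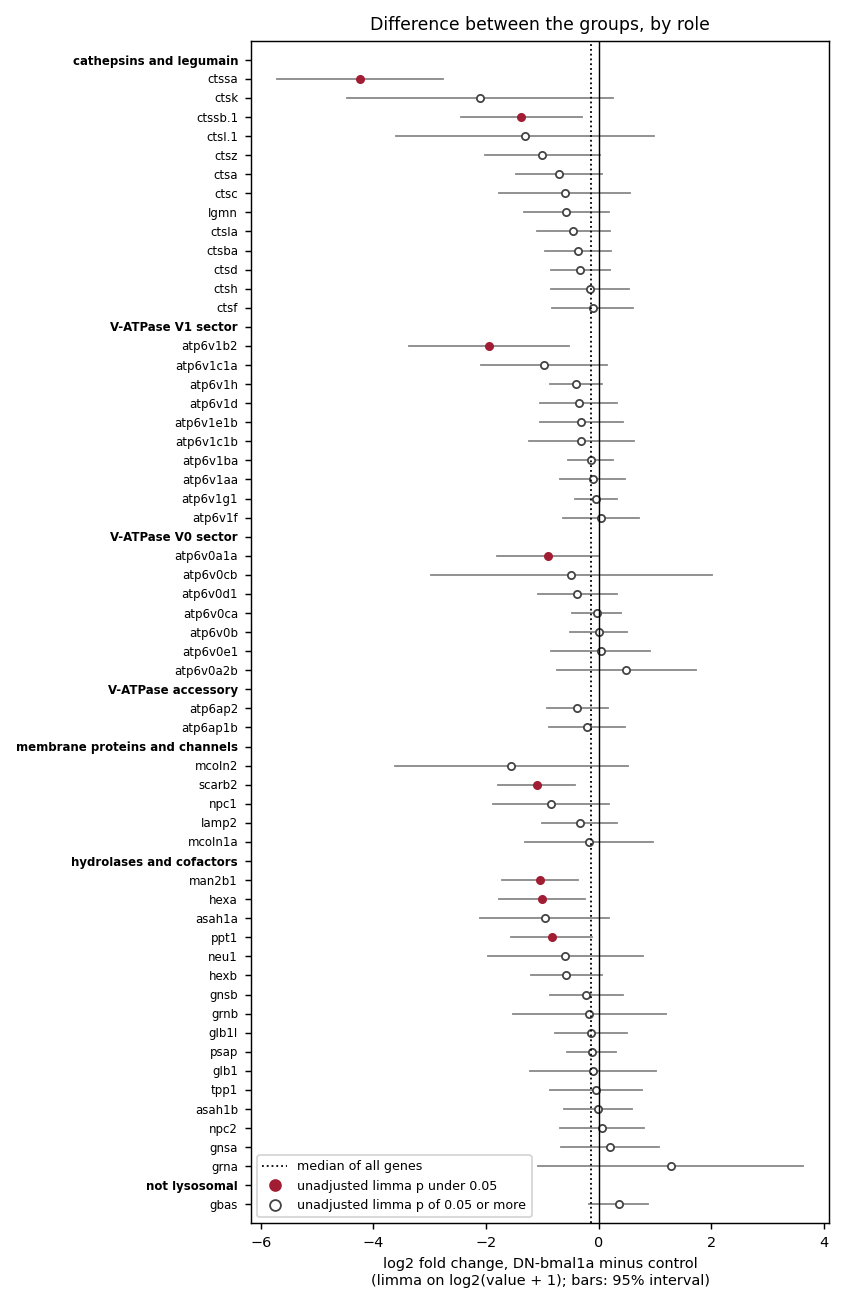
DN-bmal1a minus control on the log2 scale for each of the 54 genes, with its 95% interval from limma on log2(CPM + 1), by role. Filled red points are the 8 genes with an unadjusted p under 0.05, and the dotted line is the median of all 10232 genes, at -0.13; the medians are -0.60 for cathepsins and legumain, -0.31 for the V-ATPase, -0.85 for the membrane proteins and -0.15 for the hydrolases.

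All 5 membrane proteins had a log2 fold change below 0, beside 58.1% of all genes, with a median of -0.85 that was -0.51 without DN-bmal1a replicate 2. In scarb2 (now scarb2a), the gene of the membrane protein LIMP-2 that carries glucocerebrosidase to lysosomes, the controls had 196, 219 and 167 CPM. The DN-bmal1a libraries had 53.8, 115 and 114 CPM, and the highest of them was below the lowest control. The mean was 194 ± 25.7 CPM (SD, n = 3) over the controls and 94.4 ± 35.1 CPM (SD, n = 3) over DN-bmal1a libraries, or 48.7% of the mean in controls. The log2 fold change was -1.10 (SE 0.30, limma unadjusted p = 0.00502, adjusted p = 0.278), and it stayed between -1.29 and -0.74 with each library left out in turn. Unlike most of the 54 genes, scarb2 was lowest in DN-bmal1a replicate 1 and not in replicate 2.

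npc1, which moves cholesterol out of the lysosome together with the soluble npc2, had 117, 147 and 176 CPM in control libraries and 189, 49.1 and 53.7 CPM in DN-bmal1a libraries. Replicate 1 of DN-bmal1a was above every control and the other 2 were below, so that no common direction was seen. npc2 (now npc2.1) had 173, 121 and 187 CPM in control libraries and 254, 98.6 and 176 CPM in DN-bmal1a libraries, with a log2 fold change of 0.06 (95% interval -0.68 to 0.81) against -0.85 for npc1 (95% interval -1.89 to 0.17). lamp2, an abundant protein of the lysosomal membrane, had 285, 303 and 484 CPM in control libraries and 390, 183 and 291 CPM in DN-bmal1a libraries, a log2 fold change of -0.33. mcoln1a, for a lysosomal cation channel, had a log2 fold change of -0.17. Its relative mcoln2 was sparse, with 6.16, 8.89 and 0.338 CPM in control libraries and 2.76, 0 and 0 CPM in DN-bmal1a libraries, and its log2 fold change of -1.55 (SE 0.92, limma adjusted p = 0.566) ranged from -2.44 to -0.99 with each library left out.

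Among the 16 hydrolases and cofactors, 3 had an unadjusted p under 0.05, and in each of these 3 all DN-bmal1a libraries were below all controls, beside 8.12% and 10.7% of all genes. The median log2 fold change of the 16 was -0.15, with -0.30 and -0.27 without control replicates 1 and 2, -0.05 without control replicate 3, -0.41 without DN-bmal1a replicate 1 and 0.02 without DN-bmal1a replicate 2. man2b1, the gene of the lysosomal alpha-mannosidase that degrades N-glycans, had 118, 93.6 and 111 CPM in control libraries and 70.8, 34.5 and 55.4 CPM in DN-bmal1a libraries. The mean was 107 ± 12.6 CPM (SD, n = 3) over the controls and 53.6 ± 18.3 CPM (SD, n = 3) over DN-bmal1a libraries, or 49.8% of the mean in controls, with a log2 fold change of -1.04 (SE 0.30, limma unadjusted p = 0.00656, adjusted p = 0.283). Leaving out each library in turn gave -1.27 to -0.76.

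hexa and hexb encode the alpha and beta chains of beta-hexosaminidase, which degrades gangliosides. hexa had 93.8, 92.4 and 120 CPM in control libraries and 73.9, 30.1 and 56.3 CPM in DN-bmal1a libraries, a log2 fold change of -1.002 (SE 0.34, limma unadjusted p = 0.0155, adjusted p = 0.354). hexb had 345, 347 and 567 CPM in control libraries and 394, 201 and 256 CPM in DN-bmal1a libraries, and its groups overlapped, with a log2 fold change of -0.58 (SE 0.28, limma unadjusted p = 0.0682). The share of hexa in the summed CPM of both chains was 21.4, 21.1 and 17.5% in control libraries and 15.8, 13.04 and 18.01% in DN-bmal1a, so that a difference between the chains was not seen in every library. ppt1, which removes fatty acids from proteins, had 89.4, 86.1 and 135 CPM in control libraries and 55.0, 81.0 and 39.8 CPM in DN-bmal1a libraries. The log2 fold change was -0.84 (SE 0.32, limma unadjusted p = 0.0263, adjusted p = 0.383).

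None of the other 13 had an unadjusted p under 0.05. psap, the precursor of the saposins that present lipids to these enzymes, had 933, 792 and 1181 CPM in control libraries and 1036, 749 and 861 CPM in DN-bmal1a libraries, a log2 fold change of -0.13 (95% interval -0.56 to 0.31). gnsa and gnsb, paralogues of a sulfatase of heparan sulfate breakdown, had log2 fold changes of 0.21 (95% interval -0.66 to 1.07) and -0.22. gnsa had 63.2, 43.4 and 79.0 CPM in control libraries and 114, 42.5 and 68.8 CPM in DN-bmal1a libraries. asah1a had -0.96 (SE 0.51, limma unadjusted p = 0.0926) and its paralogue asah1b -0.02 (95% interval -0.62 to 0.59). neu1 had 37.6, 38.2 and 51.9 CPM in control libraries and 47.8, 8.51 and 49.6 CPM in DN-bmal1a libraries, where replicate 2 alone was low. glb1, tpp1 and glb1l had -0.10, -0.05 and -0.14. grna, a gene of the lysosomal cofactor progranulin, had the highest log2 fold change of the 54, 1.28 (SE 1.05, limma adjusted p = 0.681). Its values of 0.217, 6.56 and 0.219 CPM in control libraries and 11.7, 0.477 and 7.57 CPM in DN-bmal1a libraries were high or low in single libraries of either group. The progranulin gene grnb had 35.1 ± 23.1 CPM (SD, n = 3) over control libraries and 32.8 ± 25.7 CPM (SD, n = 3) over DN-bmal1a libraries.

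gbas, the gene that is not lysosomal, was the only one of the 54 above every control in all 3 DN-bmal1a libraries. It had 73.8, 80.5 and 71.2 CPM in control libraries and 82.8, 93.2 and 115 CPM in DN-bmal1a libraries, a log2 fold change of 0.35 (SE 0.23, limma adjusted p = 0.603). Without gbas, 46 of the remaining 53 genes had a log2 fold change below 0 and the median was -0.35.

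Many of these genes were high and low in the same libraries. DN-bmal1a replicate 2 held the lowest of the 6 values in 32 of the 54 genes, against 28.8% of all genes, and control replicate 3 the highest in 28, against 18.7%. In 22 of the 54, control replicate 3 was the highest control, DN-bmal1a replicate 1 the highest DN-bmal1a library and replicate 2 the lowest of these, an order held by 10.7% of all genes. This order was chosen after the values of these genes had been seen, so the count is a description and no test. These 22 included ctsla, ctsba, ctsd, ctsf, ctsz, lgmn, hexa, hexb, lamp2, npc1, npc2 and psap, and 7 V-ATPase subunits. The summed level of all 54 genes followed it, with 10727, 10552 and 15018 CPM in control libraries and 12383, 6979 and 9112 CPM in DN-bmal1a libraries, so that the groups overlapped. ctsla made up 20.4 to 27.1% of these sums.

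**Figure D4:**
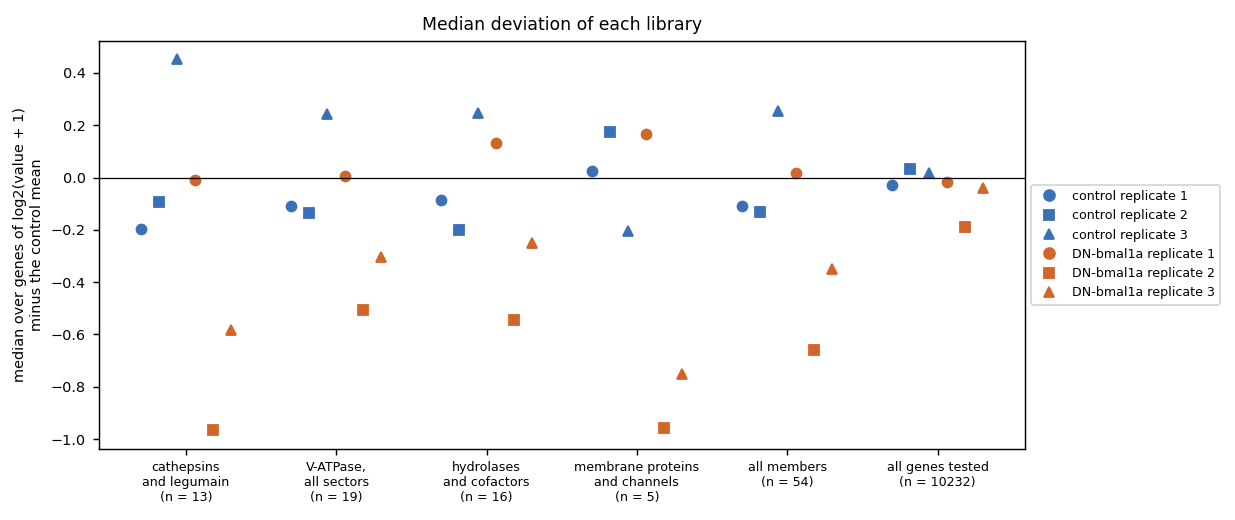
Median over the genes of each role of a library's log2(CPM + 1) minus the mean of the controls, with all 54 genes and all 10232 genes at the right. DN-bmal1a replicate 2 is the lowest library in the cathepsins, the V-ATPase as a whole, the hydrolases and the membrane proteins. It lies at -0.66 over the 54 genes and -0.19 over all genes, while DN-bmal1a replicate 1 lies at 0.02 over the 54.

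Endothelial genes were also unevenly spread over the libraries. stab1 and stab2 encode the stabilins, scavenger receptors of venous ECs, and were the genes of their 4-gene list that the table held. Their summed level was 2035 to 3683 CPM in control libraries and 495 to 1494 CPM in DN-bmal1a libraries. stab1 had 607, 1516 and 1267 CPM in control libraries and 770, 193 and 393 CPM in DN-bmal1a libraries, with the highest DN-bmal1a value in replicate 1 and the lowest in replicate 2, as in ctsla and lgmn. Among the controls the order differed, since stab1 was highest in replicate 2. The stab1 groups overlapped, with a log2 fold change of -1.44 (SE 0.47, limma adjusted p = 0.339). stab2 had 1428, 2167.5 and 1840 CPM in control libraries and 724, 301 and 366 CPM in DN-bmal1a libraries, so that its groups were apart. Its log2 fold change was -2.05 (SE 0.30, limma unadjusted p = 6.49e-05, adjusted p = 0.108). tek, the gene of the receptor Tie2, had 276, 361 and 408 CPM in control libraries and 301, 171 and 191 CPM in DN-bmal1a libraries, in the order of the 22 genes. Of the 12 endothelial markers, kdr, tek and esama had this order and the other 9 did not, and neither stabilin gene had it. Whether the lysosomal genes varied with the share of venous ECs was not tested.

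**Figure D5:**
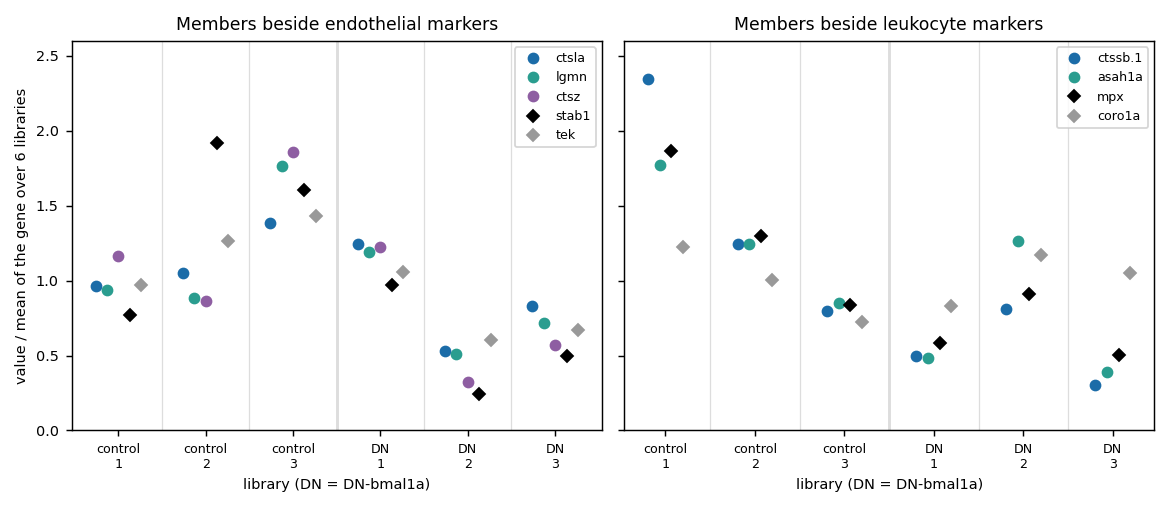
CPM in each library divided by the gene's mean over the 6 libraries, for ctsla, lgmn and ctsz beside stab1 and tek (left), and for ctssb.1 and asah1a beside mpx and coro1a (right); circles are lysosomal genes and diamonds markers, chosen after their values were seen. On the left DN-bmal1a replicate 1 is the highest DN-bmal1a library and replicate 2 the lowest, and on the right control replicate 1 is the highest control and DN-bmal1a replicate 2 the highest DN-bmal1a library.

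Replicates were more variable in DN-bmal1a. The coefficient of variation of DN-bmal1a was above that of the controls in 40 of the 54 genes, against 65.8% of all genes. Its median over the 54 was 23.5% in control libraries and 36.6% in DN-bmal1a, beside 32.4% and 45.3% over all genes. Reads were found in all 6 libraries for 48 of the 54 genes. The other 6 were ctssa, ctsk, ctsl.1, mcoln2, atp6v1b2 and atp6v0cb, where 26.5% of all genes had a library without reads.

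Further genes of the lysosome and its regulation, which the symbols above do not cover, were read from a list of 73, of which 53 were in the table. The 53 include bhlhe40 and bhlhe41, which encode repressors of the clock and no lysosomal proteins. Their log2 fold changes were -2.10 (SE 1.17) and -0.70 (SE 1.09), and they are part of the counts below. None of the 53 was called by limma. At a limma unadjusted p under 0.05, 3 were lower and 0 higher, beside 8.12% and 3.1% of all genes. The median log2 fold change of the 53 was -0.13, that of all genes, with 35 below 0 and 18 above. The 3 lower at this p were aga, for aspartylglucosaminidase (-2.29), cln6a, for a protein of the endoplasmic reticulum needed to export lysosomal enzymes (-2.06), and naga, for a lysosomal glycosidase (-0.59). The transcription factor genes tfe3a and tfe3b had log2 fold changes of -0.13 (SE 0.41) and -0.25 (SE 0.73), and tfeb was not among the rows. cd63, for a tetraspanin of late endosomes and lysosomes, was above every control in each DN-bmal1a library, with 1070, 1091 and 1146 CPM against 1337, 1322 and 1365 CPM and a log2 fold change of 0.28 (SE 0.14, limma adjusted p = 0.484). Of the 53 genes, 2 were above every control in this way and 4 below every control, beside 7% and 10.7% of all genes.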

How the data were processed

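Sorted tail cells of 3 control and 3 DN-bmal1a samples were sequenced in bulk. The reads were mapped with STAR 2.7.0f, counted per gene with HTSeq 0.9.1 and normalized with edgeR. The study's methods name danRer10 and the submitters' processing notes GRCz11, so no coordinates are given. The authors deposited 1 table of normalized signal, in reads per 1000000 of an effective library size (CPM here). All values above 0 (100%) were whole multiples (within 0.001) of 1 step per library, taken as 1 read, and these reads were used in alternatives only. The main test was limma 3.58.1 in R 4.3.3 (lmFit, eBayes with a trend) on log2(CPM + 1) over all 10232 genes, which understates changes of genes with few reads. The tests had been planned for plain CPM and were kept.

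The genes and lists were chosen with earlier results of these data known. Library values and a log2 fold change with its error or interval are given for 22 genes: ctssa, those with an unadjusted p under 0.05, the 6 highest and 6 lowest log2 fold changes with a group mean of at least 5 CPM, the 5 highest control means, and those with a group mean of at least 5 CPM and a library without reads. The remaining genes are given by library values, group means or a log2 fold change, and many of them by the log2 fold change only. Current names came from RefSeq: 49 symbols matched directly and 5 as synonyms. Promoter sequences and coding lengths were not used here, so the planned motif counts and levels per length are not given. Reads shared by near-identical paralogues may be split or lost in counting. Alternatives were pseudocounts of 0.1 and 10, filters (at least 1 CPM in 3 libraries, or a mean of at least 5), other scalings, no trend, array weights, a replicate block, each library left out, and edgeR 4.0.16 and DESeq2 1.42.0 on recovered reads. The fits were tested on simulated data. No libraries matched within counting error. The labels do not say that replicates came from separate clutches, so p-values measure the spread between these samples, which may be technical.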

Additional observations from a re-analysis of the deposited data

How the results depend on the processing

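The number of the 54 genes called stayed at 0 with both other pseudocounts, both filters, quantile normalization and rescaling. It was also 0 with no threshold on the fold change, with edgeR's quasi-likelihood test and with each library left out. The edgeR test had 7 of the 54 with an unadjusted p below 0.05, beside 7.86% of all genes. The number called was 1, ctssa, with eBayes without a trend, which called 7 of all 10232 genes. It was also 1, again ctssa, with array weights, which called 0.215% of all genes. With DESeq2, which called 1.87% of all genes, it was 2, ctssa and atp6v1b2. The adjusted p of ctssa ranged from 5.07e-11 to 0.538 over all settings. With the replicate number as a block the number called was also 0. In that fit 11 of the 54 had an unadjusted p below 0.05, beside 9.98% of all genes. Same-numbered libraries correlated by -0.07, -0.01 and 0.0025 in their deviations from the group means, and differently numbered ones by -0.07 to 0.08. With 3 libraries per group, these values cannot tell whether same-numbered libraries shared a batch, and the labels do not say. Across the fits that left out 1 library, 6 to 14 genes had an unadjusted p under 0.05, beside 7.37% to 14.96% of all genes. The 14 came without DN-bmal1a replicate 1, where the share of all genes was also the highest, against 11.2% with all libraries. The median log2 fold change ranged from -0.51 to -0.14 over the 54 genes, from -0.90 to -0.30 for cathepsins and legumain, from -0.43 to -0.08 for the V-ATPase, from -1.01 to -0.51 for the membrane proteins and from -0.41 to 0.02 for the hydrolases, the last above 0 without DN-bmal1a replicate 2. Quantile normalization moved the median of all genes from -0.13 to 0.04 and that of the 54 from -0.34 to -0.30. It moved the share of genes with an unadjusted p under 0.05 that were lower from 72.4% to 56.4%. In each of the fits 8 of the 54 had such a p and all 8 were lower, though they were not all the same genes. psap was 0.049 with array weights. With libraries left out, psap ranged from -0.26 to 0.025, atp6v1f from -0.088 to 0.17, gnsa from -0.15 to 0.55, npc2 from -0.25 to 0.43 and atp6v0a2b from -0.083 to 1.04. Of the 54 genes, 30 were lower and 2 higher under every setting in which they were tested. The 2 were gbas, which is not lysosomal, and grna, whose CPM was high or low in single libraries of either group. Why the counts and fold changes moved between settings was not tested.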
